A study of Homo sapiens with 8 samples.

Results

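The genes described here are 36 genes of the hypoxia response, made up of the subunits of hypoxia-inducible factor (HIF), the proteins that destroy or inhibit it, and well-known target genes. Each was taken by name from the platform annotation and represented by the probe set that names it alone and has the highest mean over the 8 arrays. A probe set of this kind was found for 35 of the 36 genes, out of 19775 genes in the whole series, and CA9 was not analysed here. The 35 genes have 95 such probe sets in all.

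The cells were A549, a human lung adenocarcinoma line, and RNA was measured on Affymetrix U133 plus 2.0 arrays in 4 groups of 2 arrays. Monolayers (2D) and hanging-drop spheroids (3D) each received vehicle (2D control, 3D control) or TGFβ (2 ng/ml) together with TNF (10 ng/ml), given for 48 h and then renewed for a further 48 h (2D treated, 3D treated). All groups are this 1 cell line, with no engineered allele named in the labels, and serum was lowered in the medium during treatment. The arrays of a group are technical duplicates in the methods and biological replicates in the deposited design, so that p-values may measure only technical spread. Values are GCRMA log2 expression, where 1 unit is a doubling of the background-corrected signal, and levels of different genes come from different probes and are not compared with each other.

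HIF is a pair of proteins, an oxygen-sensitive α subunit (HIF1A, EPAS1 or HIF3A) and the stable partner ARNT. When oxygen is present, the prolyl hydroxylases EGLN1, EGLN2 and EGLN3 mark the α subunit for VHL, the recognition subunit of a ubiquitin ligase, and HIF1AN blocks its contact with coactivators. When oxygen falls, the α subunit escapes destruction mainly at the protein level, enters the nucleus and switches on genes of glycolysis, blood vessel growth, mitophagy and pH control through the short DNA motifs ACGTG and GCGTG. In spheroids, oxygen reaches the inner cells by diffusion.

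Values near 2.23, the floor of every array, carry no signal, and medians of the arrays were 2.43 to 2.50. Markers of A549 and lung carcinoma epithelium were measured for 9 of 10 listed genes, all above the array median on all 8 arrays. Their summed level is the log2 of the sum of their signals. It was 17.41 to 17.43 in 2D control, 17.11 in 2D treated, 17.01 to 17.05 in 3D control and 16.23 to 16.29 in 3D treated cultures. The sum weighs the genes with the most signal, such as AKR1B10, AKR1C1 and KRT18 (15.47, 15.38 and 15.09 in 2D control). In 3D treated against 3D control cultures, 7 of the 9 were called lower (77.8%), beside 10.8% of all genes. KRT7 and KRT19 were not called there (0.91 and −0.74). KRT19 was called higher in 3D than in 2D, at 1.42 in control and 2.17 in treated cultures. The defining endothelial markers VWF, CDH5, TEK and KDR, the leukocyte markers PTPRC and CD3D and the fibroblast markers DCN and THY1 were near background on all arrays. Other markers were not, since the endothelial PECAM1 had group means of 4.30 to 4.51 and the fibroblast COL1A1 of 7.48 to 7.80, both above the array median on all 8 arrays, CLDN5 was just above it at 2.56 to 2.58, and LUM reached 3.64 ± 1.24 (SD, n = 2 arrays) in 3D treated cultures. Of 4 measured leukocyte markers CD14 and LYZ had signal, and the summed level of the list was 8.65 to 9.74 in 2D control, 8.85 to 9.73 in 2D treated, 9.53 to 9.62 in 3D control and 6.83 to 7.03 in 3D treated cultures. That of the 6 endothelial markers was 5.48 to 5.65 and that of the 6 fibroblast markers 7.39 to 8.07 over all arrays. The difference between the 3′ and 5′ control probe sets of ACTB, a sign of RNA integrity, was 1.36 to 1.46 on the 2D arrays and 0.98 to 1.27 on the 3D arrays, that of GAPDH was −0.12 to −0.03 throughout, and the part of either in the results was not tested.

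Most of the hypoxia genes were higher in spheroids than in monolayers, with or without treatment. In 3D control against 2D control cultures, 21 of the 35 genes were called higher and 1 lower at an adjusted p under 0.05 from limma, beside 5.77% and 4.9% of all 19775 genes. The median log2 difference was 1.22 for the 35 genes and 0.00 for all genes. In 3D treated against 2D treated cultures, 20 were called higher and 3 lower, beside 9.06% and 14.5% of all genes, with a median log2 difference of 1.17. Among the 12520 genes whose mean was above the median value, the shares called higher were 8.98% and 13.9%. Both 3D comparisons called 19 of the same genes higher. BNIP3 and PFKFB4 were called in control cultures only and AK4 in treated cultures only. In these bulk samples, more cells that express a gene and more RNA per cell cannot be told apart. The control and treated comparisons share no arrays, only the fit's estimate of the spread.

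**Figure D1:**
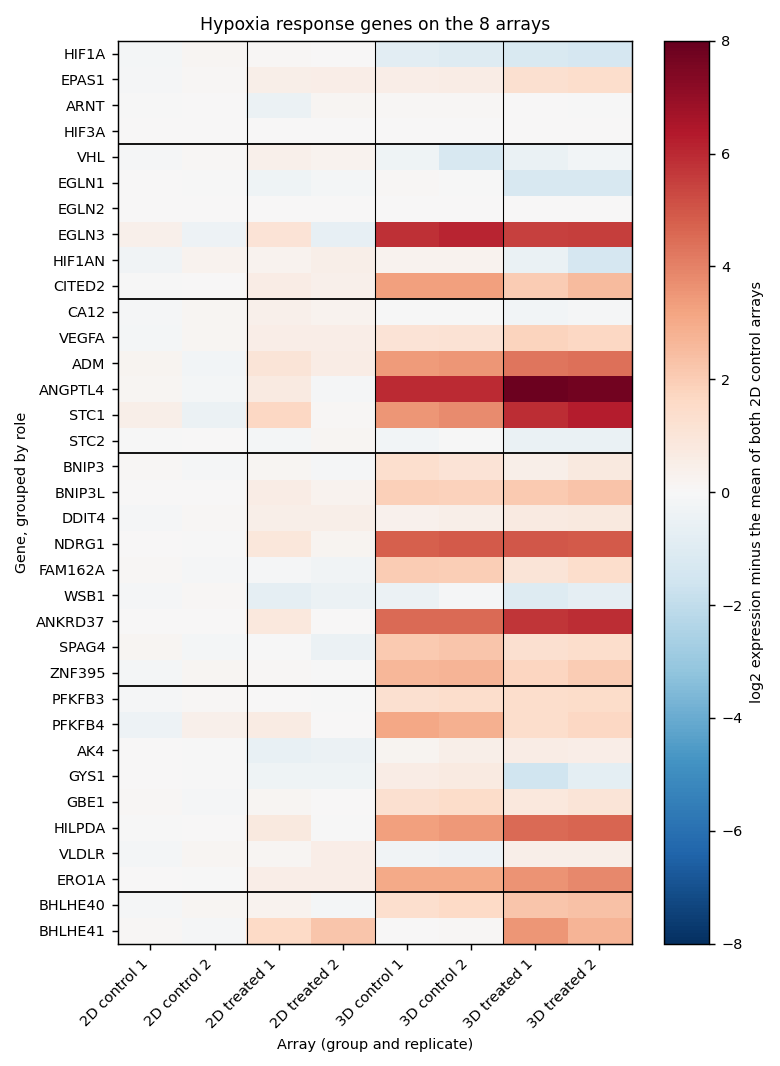
log2 expression of the 35 measured hypoxia genes (rows, grouped by role) on each of the 8 arrays (columns), as the difference from the mean of both 2D control arrays of that gene, red for higher and blue for lower. The 4 columns of the 3D cultures are red for EGLN3, CITED2, ADM, ANGPTL4, STC1, NDRG1, ANKRD37, HILPDA and ERO1A, whereas HIF1A is blue in these columns.

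Secreted and pH-regulating genes held the largest difference between treated cultures. ANGPTL4, a secreted inhibitor of lipoprotein lipase, had levels of 4.19 and 3.84 in 2D control, 4.72 and 3.92 in 2D treated, 9.98 and 9.97 in 3D control and 11.88 and 11.75 in 3D treated cultures. All 4 spheroid arrays lay above all 4 monolayer arrays, and the treated spheroids above the control ones. The log2 fold-change was 5.96 (SE 0.30, adjusted p = 0.00628) between controls, which is 62.1-fold, and 7.50 (SE 0.30, adjusted p = 0.00158) between treated cultures, which is 181-fold, from limma. ADM, the vasodilator peptide adrenomedullin, had levels of 11.15 and 10.76 in 2D control, 11.99 and 11.54 in 2D treated, 14.39 and 14.46 in 3D control and 15.25 and 15.34 in 3D treated cultures. Its groups followed the same order without overlap between culture types, at log2 fold-changes of 3.47 (SE 0.20, adjusted p = 0.00763) and 3.53 (SE 0.20, adjusted p = 0.00292) in limma. STC1, the glycoprotein hormone stanniocalcin, had levels of 7.65 and 6.71 in 2D control, 8.83 and 7.29 in 2D treated, 10.71 and 10.98 in 3D control and 13.06 and 13.43 in 3D treated cultures. The monolayer arrays of this gene were far apart within each group, and the log2 fold-changes were 3.67 (SE 0.63, adjusted p = 0.0483) and 5.18 (SE 0.63, adjusted p = 0.0119). For treated cultures the difference of STC1 was 36.3-fold. It became 62.2-fold when 2D treated replicate 1 was left out and 21.3-fold when replicate 2 was. VEGFA, the vascular endothelial growth factor, had levels of 11.87 and 12.16 in 2D control, 12.54 and 12.54 in 2D treated, 13.12 and 13.14 in 3D control and 13.80 and 13.70 in 3D treated cultures. Its 4 groups lay in steps without overlap, and spheroids exceeded monolayers by 1.11 (SE 0.10, adjusted p = 0.0165) and 1.21 (SE 0.10, adjusted p = 0.0059) on the log2 scale in limma. CA12, a carbonic anhydrase at the cell surface, had levels of 14.20 and 14.45 in 2D control, 14.72 and 14.61 in 2D treated, 14.31 and 14.27 in 3D control and 14.11 and 14.24 in 3D treated cultures. It was the exception in this group of genes, with no call between controls and a lower level in treated spheroids, at −0.49 (SE 0.10, adjusted p = 0.0452). STC2, a relative of STC1, lay between 9.69 and 10.35 on all arrays and was not called.

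Genes of mitophagy, growth control and stress were higher in spheroids for 8 of 9 members between controls and for 7 of 9 between treated cultures. NDRG1, a stress-responsive protein and suppressor of metastasis, had levels of 9.41 and 9.36 in 2D control, 10.30 and 9.59 in 2D treated, 14.19 and 14.28 in 3D control and 14.34 and 14.31 in 3D treated cultures. The spheroid arrays were nearly at one level, and the log2 fold-changes were 4.85 (SE 0.24, adjusted p = 0.00628) and 4.38 (SE 0.24, adjusted p = 0.00275) in limma, the first 28.8-fold. ANKRD37, an ankyrin repeat protein, had levels of 4.57 and 4.57 in 2D control, 5.42 and 4.57 in 2D treated, 9.08 and 9.08 in 3D control and 10.31 and 10.46 in 3D treated cultures. Both control arrays in 2D had an identical value, so the sizes of 4.51 (SE 0.29, adjusted p = 0.00885) and 5.39 (SE 0.29, adjusted p = 0.00273) are not exact. BNIP3L, a mitophagy receptor of the mitochondrial outer membrane, had levels of 11.60 and 11.60 in 2D control, 12.20 and 11.91 in 2D treated, 13.52 and 13.45 in 3D control and 13.72 and 13.86 in 3D treated cultures, with log2 fold-changes of 1.88 (SE 0.11, adjusted p = 0.00776) and 1.73 (SE 0.11, adjusted p = 0.00369). Its relative BNIP3 had levels of 12.01 and 11.87 in 2D control, 12.11 and 11.82 in 2D treated, 13.28 and 13.04 in 3D control and 12.41 and 12.70 in 3D treated cultures. Only the difference between controls was called for BNIP3, at 1.22 (SE 0.17, adjusted p = 0.0315), with 0.59 (SE 0.17, adjusted p = 0.103) between treated cultures.

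FAM162A, a mitochondrial protein linked to cell death, had levels of 11.42 and 11.26 in 2D control, 11.27 and 11.06 in 2D treated, 13.36 and 13.32 in 3D control and 12.39 and 12.77 in 3D treated cultures. Every spheroid array was above every monolayer array of this gene, with log2 fold-changes of 2.00 (SE 0.15, adjusted p = 0.0119) and 1.42 (SE 0.15, adjusted p = 0.00934) in limma. ZNF395, a transcription factor, had levels of 6.84 and 7.13 in 2D control, 7.10 and 6.98 in 2D treated, 9.66 and 9.71 in 3D control and 8.73 and 9.01 in 3D treated cultures, with log2 fold-changes of 2.70 (SE 0.14, adjusted p = 0.00671) and 1.83 (SE 0.14, adjusted p = 0.00505). SPAG4, a protein of the nuclear envelope, had levels of 6.74 and 6.46 in 2D control, 6.58 and 6.13 in 2D treated, 8.70 and 8.80 in 3D control and 7.89 and 8.00 in 3D treated cultures, with log2 fold-changes of 2.15 (SE 0.19, adjusted p = 0.0144) and 1.59 (SE 0.19, adjusted p = 0.0108). In FAM162A, ZNF395 and SPAG4 alike the 3D treated arrays lay between those of the monolayers and of the control spheroids. DDIT4, an inhibitor of the growth kinase complex mTORC1, had levels of 13.04 and 13.18 in 2D control, 13.56 and 13.56 in 2D treated, 13.48 and 13.57 in 3D control and 13.84 and 13.90 in 3D treated cultures. Its differences were small but called, at 0.42 (SE 0.06, adjusted p = 0.0326) and 0.31 (SE 0.06, adjusted p = 0.0345), and the 3D control and 2D treated arrays of DDIT4 overlapped. WSB1, a substrate receptor of a ubiquitin ligase, lay between 9.98 and 11.09 on all arrays and was not called.

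Of 8 genes of metabolism, lipid storage and protein folding, 5 were called higher in each 3D against 2D comparison. ERO1A, the oxidase that forms disulfide bonds in the endoplasmic reticulum, had levels of 9.73 and 9.72 in 2D control, 10.27 and 10.25 in 2D treated, 12.77 and 12.76 in 3D control and 13.33 and 13.56 in 3D treated cultures. Replicates were close and the groups lay in steps without overlap, at 3.05 (SE 0.08, adjusted p = 0.0014) and 3.18 (SE 0.08, adjusted p = 0.0007) on the log2 scale, with the smallest adjusted p of the 35 genes in both comparisons. HILPDA, a lipid droplet protein that inhibits triglyceride breakdown, had levels of 10.04 and 10.05 in 2D control, 10.81 and 9.99 in 2D treated, 13.33 and 13.54 in 3D control and 14.59 and 14.73 in 3D treated cultures. The spheroid arrays were all higher, with log2 fold-changes of 3.39 (SE 0.29, adjusted p = 0.014) and 4.26 (SE 0.29, adjusted p = 0.00393). PFKFB3, which makes the activator of phosphofructokinase, had levels of 10.77 and 10.97 in 2D control, 10.91 and 10.81 in 2D treated, 12.18 and 12.28 in 3D control and 12.27 and 12.36 in 3D treated cultures. Spheroids were higher by 1.36 (SE 0.09, adjusted p = 0.00883) and 1.45 (SE 0.09, adjusted p = 0.00328). The related enzyme gene PFKFB4 had levels of 2.79 and 3.61 in 2D control, 3.87 and 3.22 in 2D treated, 6.28 and 6.03 in 3D control and 4.61 and 4.83 in 3D treated cultures. Only the difference between controls was called for PFKFB4, at 2.96 (SE 0.37, adjusted p = 0.0264), with 1.17 (SE 0.37, adjusted p = 0.135) between treated cultures. GBE1, the glycogen branching enzyme, had levels of 11.84 and 11.64 in 2D control, 11.87 and 11.74 in 2D treated, 13.04 and 13.18 in 3D control and 12.57 and 12.79 in 3D treated cultures, with log2 fold-changes of 1.37 (SE 0.12, adjusted p = 0.0148) and 0.88 (SE 0.12, adjusted p = 0.016). AK4, a mitochondrial adenylate kinase, had levels of 10.24 and 10.22 in 2D control, 9.63 and 9.77 in 2D treated, 10.44 and 10.71 in 3D control and 10.81 and 10.75 in 3D treated cultures. For AK4 only treated cultures gave a call, at 1.08 (SE 0.10, adjusted p = 0.00699). GYS1, glycogen synthase, was not called in either 3D against 2D comparison (0.66 and −0.84, adjusted p = 0.34 and 0.156), and VLDLR, a lipoprotein receptor, lay between 8.83 and 9.76 on all arrays and was not called.

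The related transcriptional repressors BHLHE40 and BHLHE41 differed in where they were high. BHLHE40 had levels of 11.10 and 11.35 in 2D control, 11.49 and 11.08 in 2D treated, 12.54 and 12.79 in 3D control and 13.42 and 13.59 in 3D treated cultures. Both 3D groups were above both 2D groups, at 1.45 (SE 0.19, adjusted p = 0.0292) and 2.22 (SE 0.19, adjusted p = 0.00591) in limma. BHLHE41 had levels of 4.16 and 3.92 in 2D control, 5.64 and 6.26 in 2D treated, 4.04 and 4.11 in 3D control and 7.60 and 6.76 in 3D treated cultures. Treated arrays were high in both culture types and control arrays were low in both, and neither 3D against 2D difference was called (0.04 and 1.23, SE 0.36, adjusted p = 1 and 0.112).

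**Figure D2:**
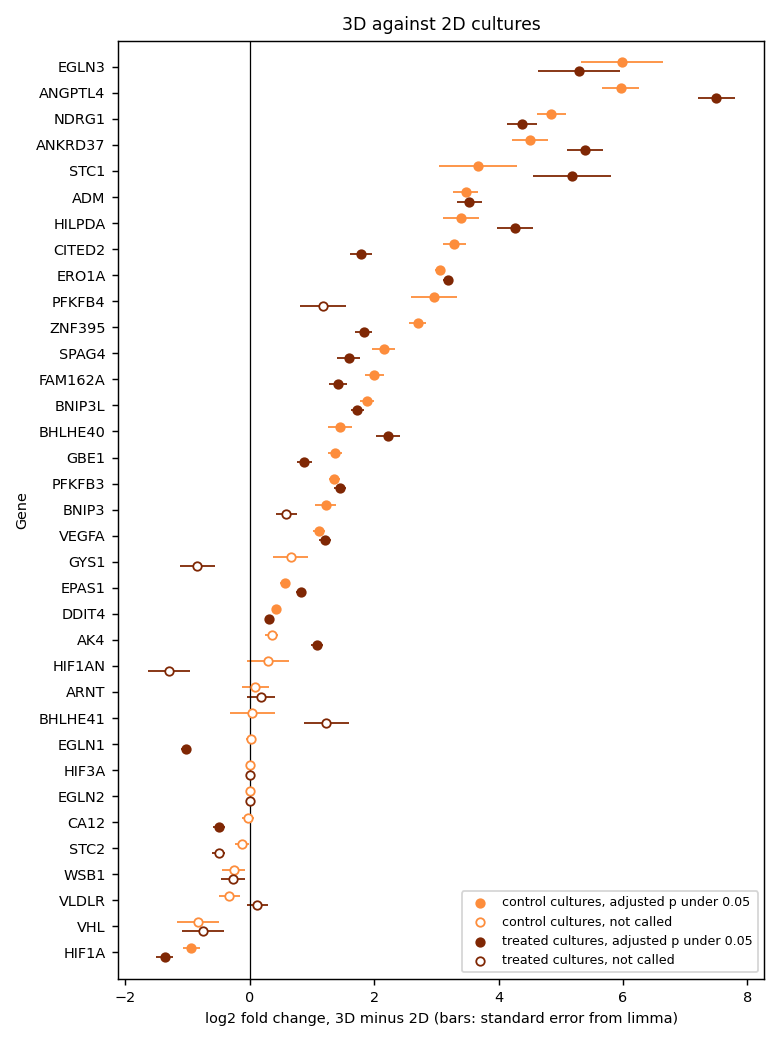
log2 fold-changes of 3D against 2D cultures (horizontal axis, log2 scale, bars are 1 limma standard error to each side) for each hypoxia gene (vertical axis), separately for control and treated cultures. Filled points are called at an adjusted p under 0.05 and open points are not; ANGPTL4 reaches 5.96 in control and 7.50 in treated cultures, and HIF1A lies at −0.94 and −1.37.

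The 22 calls between control cultures depended in part on single arrays. Leaving out 3D control replicate 2 ended 12 of them, with a highest limma adjusted p of 0.183, and leaving out 3D control replicate 1 ended 9, with a highest value of 0.146. The number lost was 8 on omission of either 3D treated array (highest 0.107), 6 on omission of either 2D control array (highest 0.0893 for replicate 1 and 0.164 for replicate 2) and 5 on omission of either 2D treated array (highest 0.0895). In contrast, CITED2, ADM, ANGPTL4, BNIP3L, NDRG1, FAM162A, ANKRD37, ZNF395, PFKFB3 and ERO1A were called in all 8 such fits by limma. Only 10 genes were called on omission of 3D control replicate 2 and 13 on omission of replicate 1, and a fit of the 4 control arrays alone called 7. The 23 calls between treated cultures lost 5 on omission of 3D treated replicate 2 (highest adjusted p 0.134) and 2 on that of replicate 1 (highest 0.147). Either 2D treated array cost 3 calls (highest 0.175 for replicate 1 and 0.14 for replicate 2) and either 3D control array 2 (highest 0.109). The calls that ended were those of EGLN3, CA12, STC1, DDIT4 and GBE1, and 18 were made in all 8 fits. A fit of the 4 treated arrays alone called 1 gene.

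The promoters of 28 of the 36 genes were searched for the HIF core motif in the 250 bases before the start site (RefSeq, GRCh38.p14). The table held no window for VHL, HILPDA, SPAG4, ZNF395, VEGFA, BNIP3L, STC1 and NDRG1. ACGTG was read on both strands, as ACGTG or CACGT, and CACGTG holds both. It was present in 16 of 38 windows (42.1%), beside 18.5% of all 35116 windows in the table. GCGTG, the other form of the core, was present in 55.3% beside 32.2%, and CACGTG in 23.7% beside 6.34%. Of the genes called higher in 3D control against 2D control cultures, 14 had a window and 10 of these held ACGTG, and the ones without it were ADM, EGLN3, EPAS1 and PFKFB4. Of 12 measured genes with a window that were not called, 5 held it. A gene was counted when any of its windows held ACGTG, whereas the 18.5% is a share of windows. The share over all genes was not computed. A match of letters is a description of the sequence and not of binding. The windows below all hold ACGTG on either strand. Windows without it are not printed, among them those of EGLN3 and ADM, at 5.98 and 3.47 between controls on the log2 scale. The printed ones belong to ANGPTL4 and ANKRD37, with large differences between culture types, and to ERO1A and BHLHE40, called in both 3D against 2D comparisons. The last belongs to EGLN1, whose response to treatment differed between culture types. Each window is written 5′ to 3′ on the strand of the gene and ends at the base before the start site. Capitals mark ACGTG or CACGT.
ANGPTL4 (chr19:8363905-8364154, plus strand): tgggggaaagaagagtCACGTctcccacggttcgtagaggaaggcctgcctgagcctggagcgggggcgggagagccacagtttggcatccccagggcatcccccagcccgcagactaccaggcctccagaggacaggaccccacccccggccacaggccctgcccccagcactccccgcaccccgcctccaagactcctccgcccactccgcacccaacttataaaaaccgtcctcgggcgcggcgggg
ANKRD37 (chr4:185396591-185396840, plus strand): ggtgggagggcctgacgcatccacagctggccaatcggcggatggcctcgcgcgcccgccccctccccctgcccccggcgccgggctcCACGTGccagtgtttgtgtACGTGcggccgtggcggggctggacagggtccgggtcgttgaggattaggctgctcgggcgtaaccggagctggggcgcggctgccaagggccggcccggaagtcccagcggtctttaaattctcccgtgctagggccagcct
ERO1A (chr14:52695559-52695808, minus strand): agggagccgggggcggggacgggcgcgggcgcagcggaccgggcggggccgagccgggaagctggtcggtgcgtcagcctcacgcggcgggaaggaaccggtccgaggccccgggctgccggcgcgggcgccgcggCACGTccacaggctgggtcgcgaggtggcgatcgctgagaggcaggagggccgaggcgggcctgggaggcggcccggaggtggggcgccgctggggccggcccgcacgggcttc
BHLHE40 (chr3:4979187-4979436, plus strand): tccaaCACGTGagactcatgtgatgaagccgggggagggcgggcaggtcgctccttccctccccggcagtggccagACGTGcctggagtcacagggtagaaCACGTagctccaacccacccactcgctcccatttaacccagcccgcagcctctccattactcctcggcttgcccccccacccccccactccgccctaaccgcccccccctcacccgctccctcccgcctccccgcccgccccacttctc
EGLN1 (chr1:231422288-231422537, minus strand): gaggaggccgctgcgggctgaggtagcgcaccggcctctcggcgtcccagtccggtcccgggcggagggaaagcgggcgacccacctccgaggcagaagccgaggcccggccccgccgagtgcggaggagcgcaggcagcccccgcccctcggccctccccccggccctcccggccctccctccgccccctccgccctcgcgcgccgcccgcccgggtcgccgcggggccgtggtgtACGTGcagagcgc

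In ANGPTL4 the only match began 234 bases before the start site, and in ERO1A 114 bases before it. ANKRD37 held a CACGTG from 162 bases before its start site and a further ACGTG at 143. BHLHE40 held a CACGTG at 245 and single matches at 174 and 149, and in EGLN1 the match began 13 bases before the start site.

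The genes of HIF itself differed from one another in direction. HIF1A, the α subunit found in most cells, had levels of 14.42 and 14.72 in 2D control, 14.68 and 14.63 in 2D treated, 13.75 and 13.52 in 3D control and 13.37 and 13.20 in 3D treated cultures. All spheroid arrays lay below all monolayer arrays, and the log2 fold-change was −0.94 (SE 0.14, adjusted p = 0.0373) between controls, 1.92-fold lower, and −1.37 (SE 0.14, adjusted p = 0.00846) between treated cultures, 2.58-fold lower, in limma. EPAS1, the other main α subunit, went the opposite way, with levels of 11.97 and 12.17 in 2D control, 12.56 and 12.61 in 2D treated, 12.61 and 12.66 in 3D control and 13.35 and 13.46 in 3D treated cultures. The 2D treated and 3D control arrays of EPAS1 lay close together and the 3D treated arrays stood above them, with spheroids higher by 0.57 (SE 0.08, adjusted p = 0.0336) and 0.82 (SE 0.08, adjusted p = 0.00773). ARNT, the common partner, had levels of 7.71 and 7.82 in 2D control, 7.27 and 7.90 in 2D treated, 7.85 and 7.85 in 3D control and 7.81 and 7.72 in 3D treated cultures. The groups of ARNT overlapped and no difference was called (log2 fold-changes of −0.18 to 0.18). HIF3A was at 3.02 or 3.03 on every array and EGLN2 at 2.23, the lowest value of the arrays, so neither varied measurably. The calls of HIF1A and EPAS1 between controls each held in 1 of the 8 fits with an array left out, and over all alternatives their limma adjusted p reached 0.201 and 0.178.

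Among the proteins that destroy or inhibit HIF, EGLN3 and CITED2 were higher in spheroids. EGLN3, a prolyl hydroxylase, had levels of 5.39 and 4.53 in 2D control, 6.03 and 4.32 in 2D treated, 10.80 and 11.07 in 3D control and 10.42 and 10.51 in 3D treated cultures. Every spheroid array was above every monolayer array, with mean log2 differences of 5.98 (SE 0.66, adjusted p = 0.0212) or 62.9-fold between controls and 5.29 (SE 0.66, adjusted p = 0.0123) or 39.0-fold between treated cultures in limma. The second became 70.5-fold when 2D treated replicate 1 was left out and 21.6-fold when replicate 2 was. CITED2, which competes with HIF for its coactivators, had levels of 8.24 and 8.29 in 2D control, 8.83 and 8.65 in 2D treated, 11.54 and 11.56 in 3D control and 10.28 and 10.78 in 3D treated cultures. Control spheroids were highest, and spheroids exceeded monolayers by 3.29 (SE 0.18, adjusted p = 0.00701) and 1.79 (SE 0.18, adjusted p = 0.00823) in limma. EGLN1, the main prolyl hydroxylase of most cells, had levels of 12.10 and 12.04 in 2D control, 11.74 and 11.93 in 2D treated, 12.14 and 12.04 in 3D control and 10.81 and 10.80 in 3D treated cultures. No difference was called between the control cultures (0.02, SE 0.08, adjusted p = 1), and the level was lower in treated spheroids than in treated monolayers, at −1.03 (SE 0.08, adjusted p = 0.00448). HIF1AN, the asparaginyl hydroxylase, had levels of 6.80 and 7.42 in 2D control, 7.38 and 7.56 in 2D treated, 7.39 and 7.40 in 3D control and 6.56 and 5.78 in 3D treated cultures. Treated spheroids were lowest, but replicates were apart and no difference of HIF1AN was called (−1.30, SE 0.34, adjusted p = 0.0851 between treated cultures). VHL had levels of 5.94 and 6.08 in 2D control, 6.43 and 6.28 in 2D treated, 5.65 and 4.71 in 3D control and 5.45 and 5.76 in 3D treated cultures, with overlap between the 3D groups and no call.

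**Figure D3:**
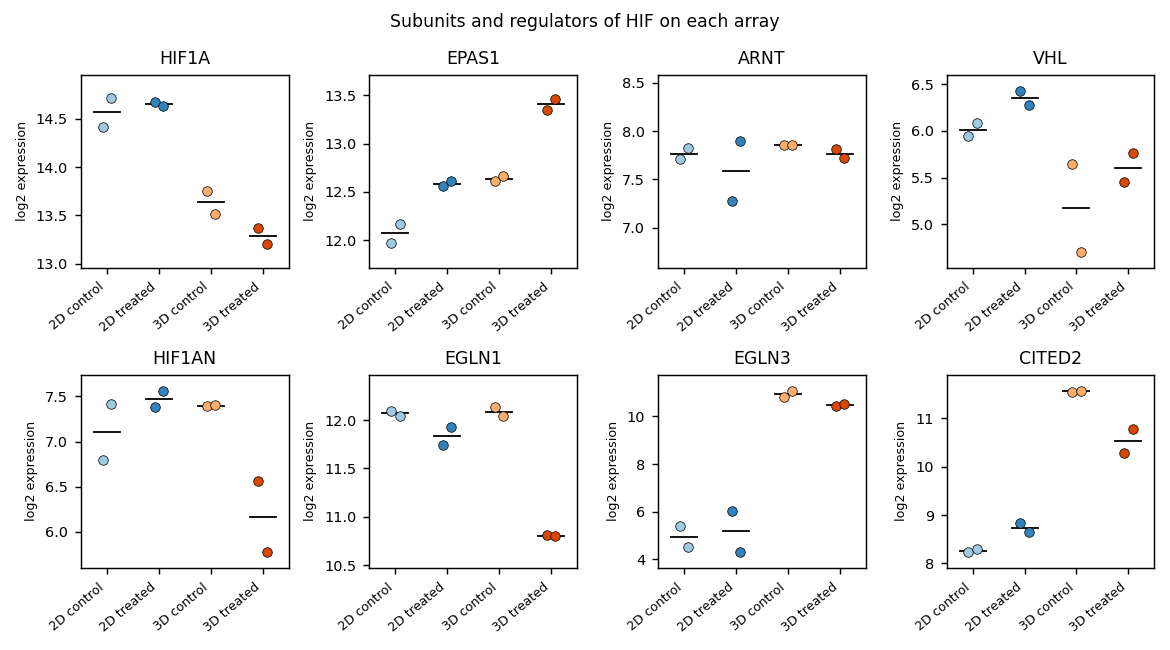
log2 expression (vertical axes, each with its own range) of 8 genes of HIF and its regulators in the 4 groups, with 1 point per array and a bar at the mean of 2 arrays. The mean of HIF1A is 14.57 in 2D control and 13.28 in 3D treated cultures, that of EGLN3 is 4.96 and 10.46, and the EGLN1 arrays of 3D treated cultures, at 10.81 and 10.80, lie below those of the other groups.

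Treatment of spheroids with TNF and TGFβ raised some hypoxia genes and lowered others. In 3D treated against 3D control cultures, 6 of 35 genes rose, 4 fell and 25 did not pass, which are 17.1% higher and 11.4% lower beside 5.53% and 10.8% of all genes. Of the 12520 genes with a mean above the median of all values, 8.41% were higher and 17.0% lower, so the share of falls was near that of all genes and below that of the brighter ones. The median log2 fold-change of the 35 genes was 0.00, as was that of all genes. BHLHE41, low in control spheroids at 4.04 and 4.11, reached 7.60 and 6.76, a log2 fold-change of 3.10 (SE 0.36, adjusted p = 0.0156) from limma, or 8.60-fold. ANGPTL4 went from 9.98 and 9.97 to 11.88 and 11.75, at 1.84 (SE 0.30, adjusted p = 0.0324). The other genes that rose were EPAS1 at 0.77 (SE 0.08, adjusted p = 0.0126), ERO1A at 0.68 (SE 0.08, adjusted p = 0.0148), VEGFA at 0.62 (SE 0.10, adjusted p = 0.0357) and DDIT4 at 0.35 (SE 0.06, adjusted p = 0.0369). In each of these genes both treated arrays were above both control arrays. The 5 genes other than BHLHE41 were also called higher in 3D control than in 2D control cultures.

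The genes that fell were of several roles. GYS1, the glycogen synthase of muscle and most other tissues, had levels of 6.18 and 6.13 in 2D control, 5.83 and 5.80 in 2D treated, 6.76 and 6.87 in 3D control and 4.56 and 5.39 in 3D treated cultures. The treated spheroid arrays were lowest and apart from each other, with a log2 fold-change of −1.84 (SE 0.28, adjusted p = 0.0287) in limma. EGLN1 went from 12.14 and 12.04 to 10.81 and 10.80, at −1.29 (SE 0.08, adjusted p = 0.00413) or 2.44-fold lower. CITED2 fell by 1.02 on the log2 scale (SE 0.18, limma adjusted p = 0.0413) and ZNF395 by 0.81 (SE 0.14, limma adjusted p = 0.0401). Both stayed above their 2D levels. Several other targets had values in either direction without a call, among them STC1 at 2.40 (SE 0.63, adjusted p = 0.104), ANKRD37 at 1.30 (SE 0.29, adjusted p = 0.0727), HILPDA at 1.23 (SE 0.29, adjusted p = 0.0802), PFKFB4 at −1.44 (SE 0.37, adjusted p = 0.1) and SPAG4 at −0.80 (SE 0.19, adjusted p = 0.077). NDRG1, 14.19 and 14.28 in control and 14.34 and 14.31 in treated spheroids, had little difference (0.09, SE 0.24, adjusted p = 1). The summed level of the epithelium markers was also lower in treated spheroids, as given above, and its part in these falls was not tested.

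Of these 10 calls, EGLN1 alone was called in all 8 fits with 1 array left out. Omission of either 3D control array ended the other 9 (highest limma adjusted p 0.153 for replicate 1 and 0.16 for replicate 2) and left 1 gene called. Either 3D treated array cost 4 of the calls (highest 0.108 for replicate 1 and 0.128 for replicate 2), either 2D control array 4 (highest 0.101) and either 2D treated array 5 (highest 0.0928), with 6 or 7 genes called in each of these fits. A fit of the 4 spheroid arrays alone called 2 genes, replicate number as a block called 7, and a filter on dim probe sets called 22, of which 12 were higher and 10 lower.

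**Figure D4:**
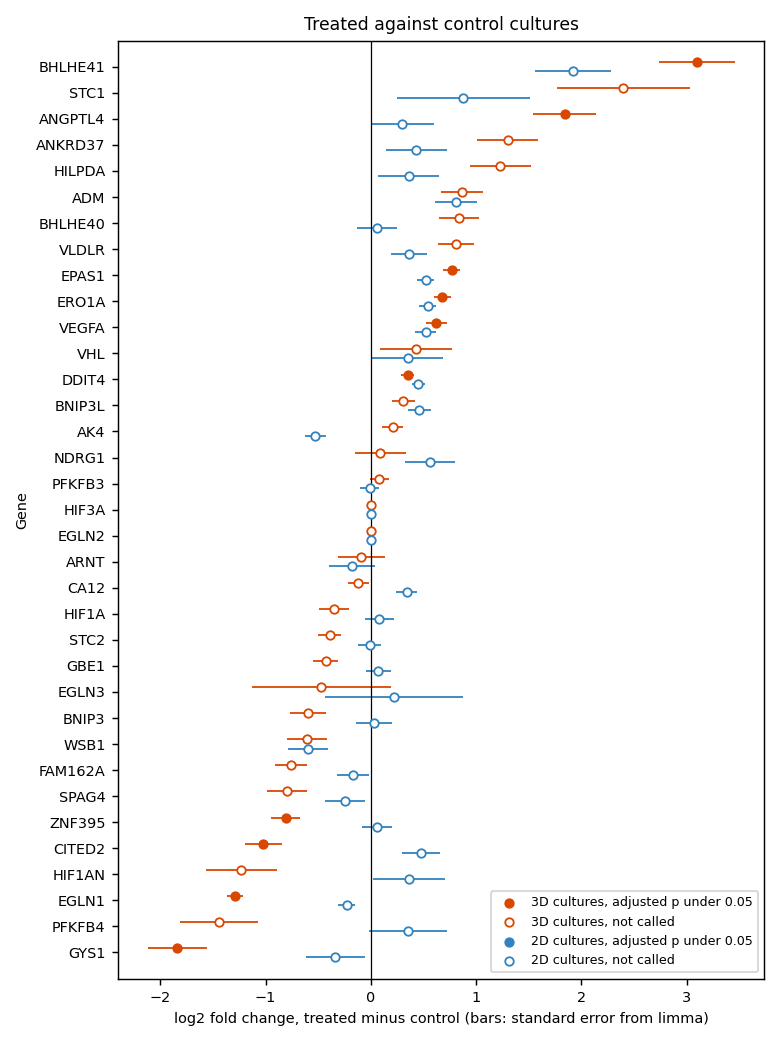
log2 fold-changes of treated against control cultures (horizontal axis, log2 scale) for each hypoxia gene (vertical axis), separately in 3D and 2D. Bars are the limma standard error to each side. Filled points are called at an adjusted p under 0.05 and open points are not; in 3D they run from −1.84 for GYS1 to 3.10 for BHLHE41, and in 2D no point is filled.

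In monolayers the same treatment gave no call among the 35 genes with limma, beside 0.121% of all genes higher and 0.0759% lower. The median log2 fold-change was 0.30, and 24 of 35 genes had a positive sign. At an unadjusted p under 0.05, 11 genes passed, with positive values for EPAS1, CA12, VEGFA, ADM, BNIP3L, DDIT4, ERO1A and BHLHE41 and negative values for EGLN1, WSB1 and AK4. These are 22.9% positive and 8.57% negative, beside 5.01% and 5.73% of all genes and 7.79% and 8.87% of the brighter genes at the same unadjusted p. The largest value was that of BHLHE41, which went from 4.16 and 3.92 to 5.64 and 6.26, at 1.92 (SE 0.36, adjusted p = 0.236). Both treated arrays of BHLHE41 were above both control arrays, but the adjusted p did not pass. ADM had 0.81 (SE 0.20, adjusted p = 0.363), EPAS1 0.52 (SE 0.08, adjusted p = 0.175), VEGFA 0.52 (SE 0.10, adjusted p = 0.26) and AK4 −0.53 (SE 0.10, adjusted p = 0.244) on the log2 scale in limma. Single arrays left out gave up to 2 calls, which were VEGFA (0.67, adjusted p = 0.029) without 2D control replicate 2, NDRG1 (0.91, 0.0122) and ANKRD37 (0.86, 0.0372) without 2D treated replicate 2 and ERO1A (0.54, 0.013) without either 3D treated array. The 2D treated arrays were uneven for these genes, since replicate 1 was above replicate 2 for 19 of the 21 genes that were higher in 3D control cultures, by a median of 0.29 and up to 1.71 on the log2 scale. Over the 12520 brighter genes replicate 1 was above replicate 2 in 45.2%, with a median difference of 0.00.

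The response to treatment differed between culture types for 1 of the 35 genes (2.86%), EGLN1, which fell further in 3D. Responses are compared with their sign, so that a larger fall is a lower response. Of all genes 1.32% had a higher and 1.94% a lower response in 3D, and of the brighter genes 1.95% and 2.98%. The share of the 35 genes was thus near that of the brighter genes. EGLN1 had log2 fold-changes of −1.29 in spheroids and −0.23 in monolayers, a difference of −1.05 (SE 0.11, adjusted p = 0.0323) in limma. In spheroids the treated arrays were more than 1 unit below the control arrays, and in monolayers they were below by less. This call ended without 2D control replicate 1 (adjusted p = 0.0557), 2D control replicate 2 (0.0762), 3D control replicate 1 (0.0596) and 3D control replicate 2 (0.0511), and with replicate number as a block (0.0871). At an unadjusted p under 0.05, 3 genes (8.57%) had a positive and 8 (22.9%) a negative difference of responses, beside 7.57% and 14.4% of all genes and 11.3% and 22.5% of the brighter genes, so both shares were near or below those of the brighter genes. They included CITED2 at −1.50 (SE 0.26, adjusted p = 0.0793), PFKFB4 at −1.79 (SE 0.53, adjusted p = 0.212), HIF1AN at −1.59 (SE 0.49, adjusted p = 0.228), ANGPTL4 at 1.54 (SE 0.42, adjusted p = 0.185), GYS1 at −1.50 (SE 0.40, adjusted p = 0.176) and AK4 at 0.74 (SE 0.14, adjusted p = 0.1). Single arrays left out gave 0 to 4 calls, namely 4 when 3D treated replicate 1 was omitted, 3 when its replicate 2 was, 2 for either 2D treated array, 1 for 3D control replicate 2 (AK4) and 0 for 3D control replicate 1 and both 2D control arrays. ANGPTL4, BHLHE41, EPAS1, ERO1A, VEGFA and DDIT4 rose in spheroids. On the probe sets described above, their responses in both culture types had the same sign, and the difference between them was not called. Another probe set of ANGPTL4 had −0.31 in monolayers and 1.53 in spheroids, and another of VEGFA −0.03 and 0.92, with no difference called. The remaining probe sets of EPAS1, ERO1A and VEGFA with signal kept the same sign in both.

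Other probe sets of the same genes changed sizes and some calls. EGLN1 had 2 further probe sets with signal, which also fell in treated spheroids (log2 values of −0.80 and −0.67, with adjusted p = 0.035 and 0.0181 in limma). They were higher in 3D control than in 2D control cultures (0.83 and 0.77, adjusted p = 0.0418 and 0.0214), did not differ by a call between treated cultures, and gave a difference of responses of −0.84 and −0.62 that was not called (limma adjusted p = 0.131 and 0.0971). HIF1AN, not called above, was lower in 3D treated than in 2D treated cultures on its other probe sets (−1.29 and −1.41, limma adjusted p = 0.0211 and 0.0108), and 1 of these fell in treated spheroids (−0.93, adjusted p = 0.0401). BHLHE40 rose in treated spheroids on its other probe set (1.96, limma adjusted p = 0.0118). The other probe sets of BHLHE41 had means of 2.23 to 2.27 over the 8 arrays, near the floor, so its values rest on 1 probe set. The other probe sets of VEGFA rose there by 0.92 to 1.61 and differed by up to 3.10 between treated cultures in 3D and 2D. The fall of CITED2 was not called on its other probe set with signal (−0.52, limma adjusted p = 0.478). Neither was the rise of ERO1A on its other probe sets (0.48 and 0.43, limma adjusted p = 0.154 and 0.187), that of ANGPTL4 (1.53, limma adjusted p = 0.114) or the fall of ZNF395 on its other one with signal (−0.74, limma adjusted p = 0.178). STC2 had the opposite sign on its other probe set, at 1.79 between treated cultures (limma adjusted p = 0.0147) and −0.50 on the one described above. Larger log2 differences between treated cultures in 3D and 2D were also found on other probe sets of STC1 (7.89), BHLHE40 (4.58), BNIP3L (2.76) and CITED2 (2.57), each called, and between controls for BHLHE40 (2.71) and BNIP3L (2.69). EPAS1 rose by 1.47 in treated spheroids on its other probe set with signal (limma adjusted p = 0.022). On that probe set the difference between controls was not called (0.52, limma adjusted p = 0.281), and that between treated cultures was (1.40, limma adjusted p = 0.0175). Smaller differences were found on the other probe sets of ERO1A, at 1.40 and 2.21 between controls and 1.58 and 2.40 between treated cultures, on that of EGLN3, at 4.50 between controls, and on that of ZNF395, at 1.53 between controls, each called. ZNF395 was not called between treated cultures there (0.85, limma adjusted p = 0.104). ARNT, not called on the probe set described above, was higher in 3D treated than in 2D treated cultures on another (0.76, limma adjusted p = 0.0499) and not called between controls there (0.71, limma adjusted p = 0.0913). For STC1 the difference between controls on another probe set was 4.90 without a call (limma adjusted p = 0.109). AK4 was called between treated cultures on another probe set (1.09, limma adjusted p = 0.0084). It was not called there on its remaining ones, at 0.35 (limma adjusted p = 0.195) and 0.09.

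Other genes of the pathway, listed with earlier results of these data known, were counted beside them. Of 47 measured further HIF target genes, 22 were called in 3D control against 2D control cultures by limma, each of them higher. That is 46.8% beside 5.77% of all genes, with a median log2 difference of 0.45. CXCR4, a chemokine receptor, had 4.04 (adjusted p = 0.00534), RORA, a nuclear receptor, 3.83 (adjusted p = 0.00832), PPP1R3C, a glycogen-targeting phosphatase subunit, 3.19 (adjusted p = 0.0116) and P4HA1, a collagen prolyl hydroxylase subunit, 3.18 (adjusted p = 0.00881) in limma. RORA and CXCR4 were close to background in monolayers (2D control levels of 2.38 ± 0.00 and 2.43 ± 0.06, SD, n = 2 arrays), so these sizes are not exact. In treated cultures 20 were higher (42.6%) and 1 lower (2.13%) in 3D, beside 9.06% and 14.5% of all genes. Treatment of spheroids raised 9 (19.1%) and lowered 2 (4.26%) of the 47, beside 5.53% and 10.8% of all genes. Among those raised were PDGFB, a platelet-derived growth factor chain, at 6.79 (adjusted p = 0.000652) from background and CXCR4 at 3.45 (adjusted p = 0.00341) in limma. LOX, a collagen cross-linking enzyme, rose by 2.17 (adjusted p = 0.0146). The difference of responses was called for PDGFB (6.79, adjusted p = 0.00245), CXCR4 (3.37, adjusted p = 0.0183) and IGFBP1, an insulin-like growth factor binding protein (−1.33, adjusted p = 0.0312) in limma. These are 4.26% higher and 2.13% lower, beside 1.32% and 1.94% of all genes. PDGFB was at background in the other 3 groups and CXCR4 near it in both 2D groups, so the sizes for these genes are not exact.

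Genes of glycolysis and glucose transport were higher in spheroids for 14 of 20 measured genes between controls (70.0%), beside 5.77% of all genes. Between treated cultures 17 were higher (85.0%) and 1 lower (5.0%), beside 9.06% and 14.5% of all genes. HK2, a hexokinase, had 4.95 (adjusted p = 0.00532), the aldolase gene ALDOC 4.75 (adjusted p = 0.0296), the glucose transporter gene SLC2A3 3.51 (adjusted p = 0.019) and the enolase gene ENO2 3.02 (adjusted p = 0.0232) between controls in limma. In treated spheroids 2 rose, SLC2A1, the main glucose transporter, at 1.38 (adjusted p = 0.0275) and HK1 at 0.48 (adjusted p = 0.0251), and 3 fell, PFKM at −0.69 (adjusted p = 0.033) and ENO1 at −0.37 (adjusted p = 0.00785) among them. These shares, 10.0% and 15.0%, were near the 8.41% and 17.0% of the brighter genes. The response differed between culture types for HK2 (2.72, adjusted p = 0.0403) and SLC2A1 (2.49, adjusted p = 0.0407), or 10.0% of the list beside 1.32% of all genes. Levels of HK2 and SLC2A1 were lower in 2D treated than in 2D control cultures on the mean (−1.58 and −1.11, not called). HK2 was near background in 2D treated cultures, so its size there is not exact.

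Among cofactors of HIF and parts of its ubiquitin ligase, 2 of 23 measured genes were higher (8.70%) and 1 lower (4.35%) between control cultures, near the 5.77% and 4.9% of all genes. Those were TRIM24, a coactivator, at 0.82 (adjusted p = 0.028), the cochaperone gene PTGES3 at 0.21 (adjusted p = 0.0007) and the chaperone gene HSP90AA1, whose product stabilizes HIF1A, at −0.74 (adjusted p = 0.00985) in limma. Between treated cultures 3 were higher (13.0%) and 7 lower (30.4%) in 3D, beside 13.9% and 22.9% of the brighter genes. In treated spheroids CITED4, a relative of CITED2, rose by 2.81 (adjusted p = 0.0106), and 4 fell, among them LIMD1, a scaffold for the VHL complex, at −1.68 (adjusted p = 0.0267) and COMMD1 at −0.67 (adjusted p = 0.0149). That is 4.35% higher and 17.4% lower, beside 8.41% and 17.0% of the brighter genes. In 2D the call of PTGES3 (0.09, adjusted p = 0.0166) was the only one in this list.

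**Figure D5:**
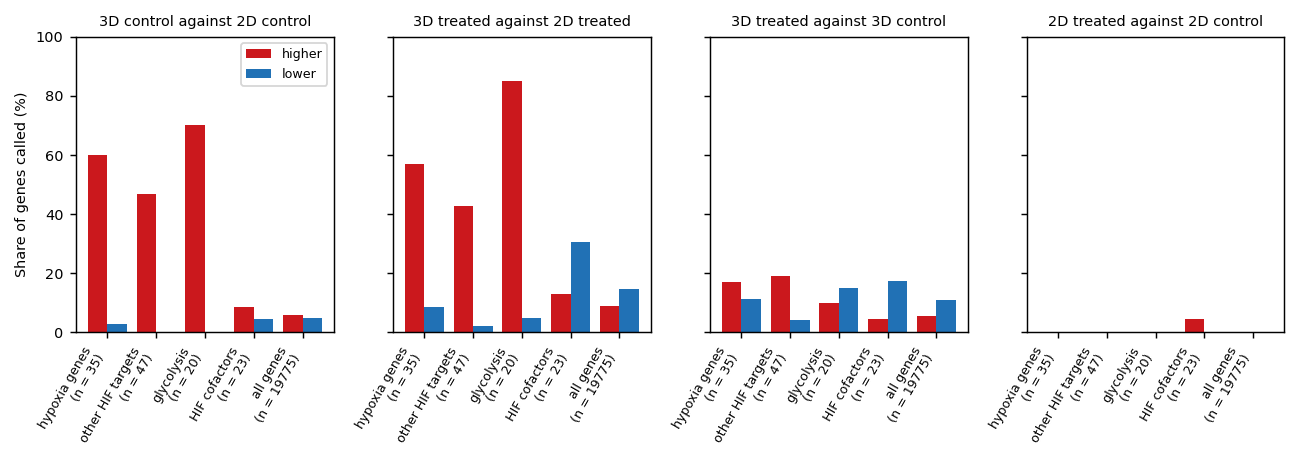
Share of genes called higher (red) or lower (blue) by limma, in percent (vertical axis), for the 35 hypoxia genes, 3 other lists of the pathway and all 19775 genes, in 4 comparisons. In 3D control against 2D control cultures 21 of 35 hypoxia genes are called higher beside 5.77% of all genes, in 3D treated against 3D control cultures 17.1% beside 5.53%, and in 2D the bar of 4.35% is 1 of 23 cofactor genes.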

How the data were processed

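RNA of A549 cells was hybridised to 8 Affymetrix arrays, 2 in each of 4 groups taken from the sample titles. The deposited values are log2 expression per probe set, made by the authors with GCRMA (background correction, normalization and summary of probes), and the authors' processing notes give limma 3.6.9. They were not normalized further. Values and probe sets were joined to the platform annotation, with symbols updated through gene identifiers to RefSeq. The 62 control probe sets were left out, and 54613 were tested, of which 41091 name 1 gene, 1801 several and 11721 none. A constant value over the 8 arrays was found for 15259 (27.9%).

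The 4 group means were estimated in limma 3.58.1 (R 4.3.3, functions lmFit and eBayes) from the 8 arrays, with residual degrees of freedom of 4 and prior degrees of 0.347. P-values were adjusted by Benjamini-Hochberg across every probe set tested, and genes below 0.05 were called. Standard errors (SE) are those of limma. The number of arrays limits precision. Members and gene lists were chosen with earlier results of these data known. Every called member and HIF regulator is described with its 8 values, and at most 4 called genes of each other list and comparison, those with the largest changes. Members not called and named with values in a comparison were chosen after their values were seen.

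Same-numbered arrays shared deviations over 25548 brighter probe sets with correlations of 0.281 between 2D groups, 0.102 between 3D groups and −0.0186 to 0.0574 otherwise, and the numbers were not taken as pairs. Alternatives were replicate number as a block, quantile normalization, an intensity trend in eBayes, centring on array medians, removal of dim probe sets (kept when at least 2 arrays exceeded their median), the probe set with the largest change, the arrays of a comparison alone and each array left out. They were computed for the 35 genes and not for the other lists. A fit without 1 array assumes that the lone array varies like the other groups. Promoter sequences came from RefSeq. Python 3.11.15 with matplotlib 3.10.9 drew the plots.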

Additional observations from a re-analysis of the deposited data

Results flagged for a closer look

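EGLN1, the prolyl hydroxylase gene, is singled out because its response to treatment differed between culture types. As 1 of 35 genes (2.86%), it is a share near the 2.98% of the brighter genes with a lower signed response in 3D. The 3D response minus the 2D response was −1.05 on the log2 scale (SE 0.11, limma adjusted p = 0.0323, range over the alternatives 0.0112 to 0.0871). Both treated spheroid arrays were below both control spheroid arrays, and both treated monolayer arrays below both control monolayer arrays by a smaller amount. Its other probe sets with signal gave −0.84 and −0.62, which were not called.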

How the results depend on the processing

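Replicate number as a block was an alternative, with correlations of paired deviations of 0.281 between 2D groups and 0.102 between 3D groups. With it, limma called 7 hypoxia genes in 3D treated against 3D control, 0 in 2D treated against 2D control and 0 for the difference of responses. It called 17 in 3D control against 2D control and 22 in 3D treated against 2D treated cultures. Subtraction of array medians gave 1 call in 2D and 2 for the difference of responses. The filter on dim probe sets gave 22 calls for spheroid treatment and 4 for the difference of responses, on 28183 probe sets. The median log2 value of the genes it kept was −0.12 in both, and the filter left the fold-changes of single genes unchanged. The arrays of a comparison alone gave 2 for spheroid treatment, 7 between controls and 1 between treated cultures, where fewer arrays estimate the spread. With each array left out, the counts ranged from 1 to 7 for spheroid treatment, 0 to 2 in 2D, 0 to 4 for the difference of responses, 10 to 17 between controls and 19 to 23 between treated cultures. STC2 turned to 1.79 between treated cultures on another probe set. Of 2585 values of single genes under these alternatives, 2332 kept their side of the threshold, 187 lost a call and 65 gained one. Another 1 reversed its sign with a call before or after. A change of sign without a call was counted among the 2332, as for AK4 on treatment of spheroids (0.21, and −0.3 on another probe set). A correction of background and a block for scan date were not run, because the analysis began from normalized values, and the arrays of a comparison alone could not be fitted for the difference of responses. The 2 arrays per group and values near 2.23 limit what can be measured, as for EGLN2.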

Other observations

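Over the 21 genes that were higher in 3D control than in 2D control cultures, the difference of replicate 1 minus replicate 2 was taken on the log2 scale. In 2D control cultures it ran from −0.82 to 0.94 with a median of 0.00, and replicate 1 was higher for 10 of the 21, beside 54.6% of the brighter genes. In 2D treated cultures it ran from −0.05 to 1.71 with a median of 0.29, and replicate 1 was higher for 19, beside 45.2%. In 3D control cultures the range was −0.27 to 0.24, the median −0.05 and the count 7, beside 51.4%. In 3D treated cultures the range was −0.51 to 0.13, the median −0.14 and the count 3, beside 56.6%. The cause was not tested.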
